A study of Mus musculus with 6 samples.

Results

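Effector memory CD4 T cells without Foxp3 UMIs were gated from mouse splenocytes profiled by droplet single-cell RNA sequencing, which counts each captured RNA molecule once by its unique molecular identifier (UMI). A cell was gated when it held at least 1 UMI of Cd3e or Cd3d, at least 1 of Cd4, none of Cd8a, Cd8b1 or Foxp3, at most 1 of Cd79a, and UMIs of at least 2 of 8 marker genes. The markers were S100a4, Icos, Cxcr3, Cxcr6, Cxcr5, Itgb1, Tnfrsf4 and Pdcd1. The gate held 590 of 31457 kept cells and 590 of 2135 Foxp3-negative CD4 T cells. Of these, 287 came from 3 spleen libraries of WT C57BL/6 mice fed MCDHFD, in a study whose labels speak of models of MASH (metabolic dysfunction-associated steatohepatitis, a fatty liver disease). The other 303 came from 3 spleen libraries of WT C57BL/6 mice fed ND. Mice were 6 weeks old when the diets began, and both groups were fed for 7 weeks. The labels do not say whether a library is 1 animal, so p-values measure the spread between these libraries, which may be technical.

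CD4 T cells that have met antigen leave the naive state, lose the lymph node homing receptor Ccr7, and gain Cd44, integrins and S100 proteins. Effector memory cells respond quickly on re-encounter and are classed by their helper programmes, such as Th1 (Tbx21, Cxcr3), Th17 (Ccr6) and follicular helper (Bcl6, Cxcr5). The spleen holds them beside naive cells, Foxp3+ regulatory T cells and innate-like natural killer T (NKT) cells, which can carry Cd4 and share many effector genes.

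Depth and library form differed. Total UMIs were 61446640, 62238012 and 21259837 for MCDHFD and 56714190, 21956506 and 45223393 for ND, here and below in the order of replicates 1, 2 and 3. MCDHFD replicate 3 and ND replicate 2 were deposited with filtered barcode lists and the other 4 libraries with unfiltered ones. In the gate, the chi-square per degree of freedom between libraries was 14.38 to 19.43 across the list forms and 2.314 to 4.435 within a form. The diets were compared with list form as a second term, a choice made with earlier results of these data known. No gated barcode was shared between libraries. Summed UMIs cannot tell fewer cells that carry an RNA from less RNA per cell.

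The gated cells varied in which markers put them there. Itgb1, the integrin beta 1 chain, was detected in 74.5%, 82.9% and 62.5% of gated cells on MCDHFD, and in 82.7%, 74.7% and 74.3% on ND. The costimulatory receptor Icos was detected in 53.8%, 53.8% and 60.9% of them on MCDHFD and 62.2%, 53.3% and 58.4% on ND. S100a4, a calcium-binding protein of memory T cells, reached 41.5%, 49.6% and 42.2% on MCDHFD, against 52.8%, 57.3% and 54.5% on ND. Itgb1 was thus the marker most often detected in all 6 libraries, and S100a4 was the one of these 3 whose diets did not overlap. Since these genes chose the cells, all 8 are given without a test. Cxcr3 and Cxcr6, chemokine receptors of type 1 cells, were found together or singly in 34.9%, 48.7% and 48.4% of gated cells on MCDHFD and in 44.9%, 60.0% and 55.4% on ND. Cxcr5 or Pdcd1, which mark follicular helper cells, were found in 37.7%, 35.9% and 39.1% on MCDHFD and in 29.9%, 41.3% and 26.7% on ND. Both pairs were present at once in 8.91% to 21.3% of the gate. B cells (at least 2 Cd79a UMIs, none of Cd3e or Cd3d) held Cxcr5 in 39.4% to 56.9% of cells, a gene they express, but Icos in at most 0.325% and Pdcd1 in at most 0.109%.

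The limit of 2 markers cut through a continuum. Levels are given in CPM, a gene's UMIs relative to all UMIs of the cells summed in a library, on a scale alike in every library. Cells with exactly 2 markers made up 50.0%, 41.9% and 37.5% of the gate on MCDHFD and 35.4%, 33.3% and 39.6% on ND. In MCDHFD replicate 1, the 53 cells just inside the limit held 242 CPM of Cd44 and 669 CPM of Lef1, a naive T cell factor, and the 138 cells just outside it, with 1 marker, held 87.0 and 1124 CPM. In ND replicate 1, the 45 cells inside held 141 CPM of Cd44 and 433 CPM of Lef1, and the 68 cells outside held 52.9 and 949 CPM. Every library showed the same order for both genes. Part of the gate was close to regulatory T cells: 51.9%, 53.0% and 39.1% of gated cells on MCDHFD and 65.4%, 44.0% and 48.5% on ND held a UMI of Il2ra, Ikzf2 or Ctla4, against 77.4% to 100% of Foxp3-positive cells and 8.89% to 22.6% of the other Foxp3-negative CD4 T cells. A cell that transcribes Foxp3 but lost its few molecules in capture would pass the gate, and how many did was not tested.

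**Figure D1:**
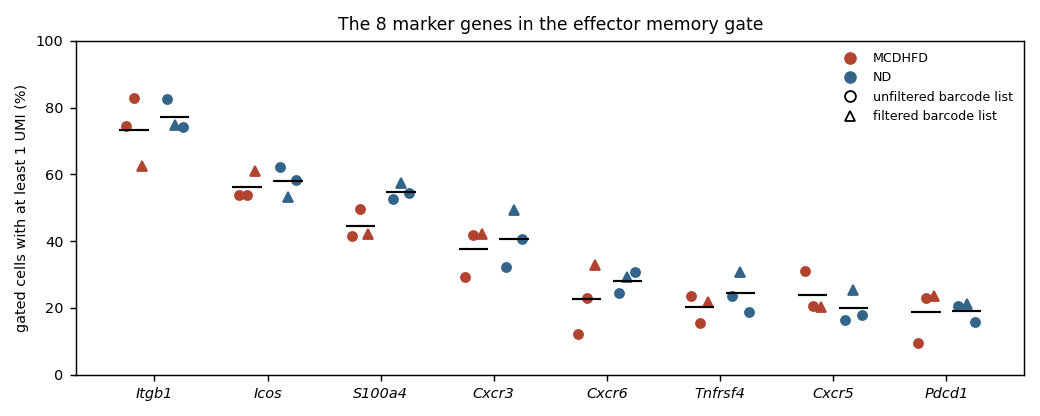
Share of gated cells with at least 1 UMI (percent) of each of the 8 marker genes, by library, MCDHFD left of ND; each point is 1 library and the bar is the mean of 3. Itgb1 lies highest, between 62.5% and 82.9%, and the MCDHFD points of S100a4 (41.5% to 49.6%) lie below the ND points (52.8% to 57.3%).

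The gate took a smaller share of the Foxp3-negative CD4 T cells on MCDHFD. On MCDHFD it held 106 of 486, 117 of 442 and 64 of 379 of them, or 21.8% (95% Wilson interval 18.4 to 25.7), 26.5% (22.6 to 30.8) and 16.9% (13.5 to 21.0). On ND it held 127 of 313, 75 of 237 and 101 of 278, or 40.6% (35.3 to 46.1), 31.6% (26.1 to 37.8) and 36.3% (30.9 to 42.1). The highest MCDHFD library lay below the lowest ND library. The mean was 21.7% ± 4.79 on MCDHFD and 36.2% ± 4.47 on ND (SD, n = 3 each), a difference of -14.5 percentage points. The exact two-sided permutation p was 0.1, the smallest that 3 against 3 libraries can give. The intervals cover counting error only. A gate on raw UMIs takes more cells where cells are deeper, and the median gated cell held 6973, 7440 and 6306 UMIs on MCDHFD and 6363, 6020 and 7446 on ND. Drawing 2000 UMIs from every cell with at least as many before gating gave shares of 12.1%, 19.8% and 11.6% on MCDHFD and 28.8%, 24.4% and 18.3% on ND, so the groups overlapped (difference -9.34 points, exact permutation p = 0.2). The whole gate was applied to the drawn UMIs, so cells could lose their Cd4 or Foxp3 UMIs and the cells compared changed too. On MCDHFD the shares were 25 of 206, 34 of 172 and 23 of 198 cells. On ND they were 47 of 163, 32 of 131 and 19 of 104. A Foxp3 UMI stayed in a mean of 54.4% of Foxp3-positive cells on MCDHFD and 49.8% on ND.

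Of all kept cells, the gate held 1.60%, 1.78% and 1.81% on MCDHFD and 1.94%, 2.29% and 2.04% on ND, a difference of -0.358 points between means of 1.73% ± 0.113 and 2.09% ± 0.180 (SD, n = 3 each; exact permutation p = 0.1). The other Foxp3-negative CD4 T cells, with 0 or 1 marker, made up 5.75%, 4.95% and 8.93% of kept cells on MCDHFD and 2.85%, 4.95% and 3.57% on ND. These cells are the rest of the denominator of the first share, and they were more frequent on MCDHFD, with 1 library of each diet at 4.95%. After thinning, the difference in the share of kept cells was -0.169 points (exact permutation p = 0.5). Without gated cells that held any UMI of 10 marker genes of other cell types it was -0.136 points (exact permutation p = 0.9), and the diets overlapped under both settings.

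**Figure D2:**
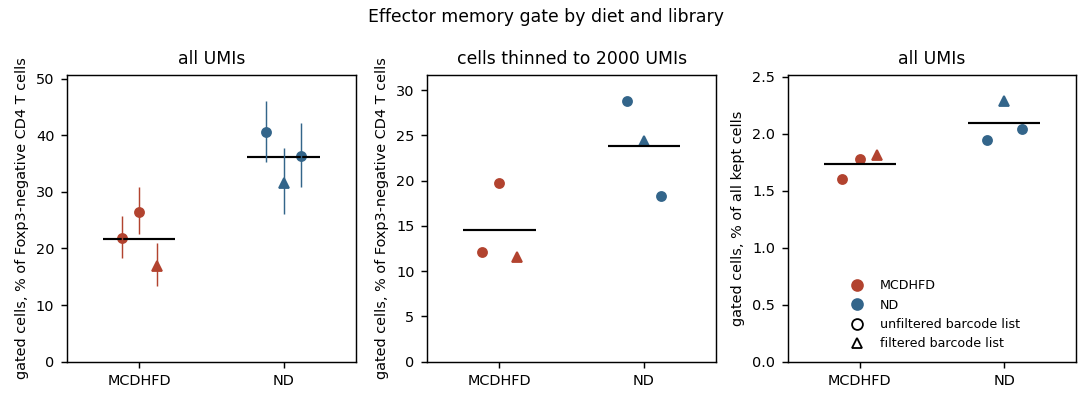
Gated cells as a percent of Foxp3-negative CD4 T cells with all UMIs (left) and at 2000 UMIs a cell (middle), and as a percent of all kept cells (right), by library, MCDHFD left of ND; vertical bars are 95% Wilson intervals, triangles mark filtered barcode lists and horizontal lines are means of 3. The MCDHFD points (16.9% to 26.5%) lie below the ND points (31.6% to 40.6%) on the left, and the diets overlap in the middle.

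Set against the other Foxp3-negative CD4 T cells of the same libraries, the gate had the profile its label names. Genes the gate did not use were compared with edgeR's quasi-likelihood test on summed UMIs, paired within library. Of 7741 genes, 1855 (24%) were called at adjusted p under 0.05, 1019 higher (13.2%) and 836 lower (10.8%). Because the cells were divided by genes that vary together with these, the calls describe what the gate holds and are not a test of it. S100a6, another S100 protein, averaged 800 ± 307 CPM in the gate and 81.8 ± 55.6 CPM in the other cells (SD, n = 6 each), a log2 difference of 3.17 ± 0.235 (SE). Maf, a factor of several helper classes, averaged 255 ± 85.3 against 29.3 ± 15.9 CPM, and Id2, a regulator of effector differentiation, 314 ± 143 against 34.8 ± 10.4 CPM. The chemokine Ccl5 had the largest difference of the genes named by size, 4.04 ± 0.363 on the log2 scale, at 573 ± 325 against 28.1 ± 20.6 CPM. Nkg7, Nrp1, Myo1f, Anxa2, Il2rb and Rora followed at log2 differences of 2.92 to 3.59. Every one of these genes was higher in the gate in 6 of 6 libraries.

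The genes of the naive state ran the other way. Igfbp4 averaged 43.1 ± 26.9 CPM in the gate and 360 ± 149 CPM in the other cells (log2 difference -3.22 ± 0.195, SE), the homing receptor Ccr7 77.4 ± 27.8 against 223 ± 91.6 CPM (-1.65), and Lef1 384 ± 100 against 1035 ± 193 CPM (-1.60). Ly6c1, Dapl1, Treml2, Atp1b1, Slc49a4, Als2cl and Bach2, which restrains effector differentiation, were also lower in 6 of 6 libraries, by log2 differences of -2.28 to -1.59. Of 19 genes listed as naive and stem-like, 15 were lower and 1 was higher, with a median log2 difference of -1.10. Of 24 tested genes of memory and adhesion, 19 were higher and 1 lower (median 0.916), with Cd44 at 1.63. The median of all genes tested was -0.0085.

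The gate held genes of several helper and innate-like programmes. Genes near 0 CPM in the other cells could pass the count filter through the gate alone, and could then hardly be called lower. The counts below are therefore a description, and 13.2% of all genes tested were called higher. Of 12 tested Th1 and type 1 effector genes, 11 were higher (median log2 difference 2.33), led by the Th1 factor Tbx21 at 4.13 and the interleukin-18 receptor subunit Il18rap at 3.63. All 3 tested Th17 genes were higher (Ccr6 at 3.66, Maf and Rora), 7 of 10 follicular helper genes were higher and 1 lower (Tox2 at 3.69, Tcf7 at -0.49), and Gata3, the Th2 factor, was higher at 0.79. All 9 tested NKT cell markers were higher (median 3.08), with Klrb1c (NK1.1) at 4.82 and Zbtb16 (PLZF), the defining factor of NKT cells, at 4.51. Zbtb16 was detected in 13.2%, 11.1% and 10.9% of gated cells on MCDHFD and 4.72%, 10.7% and 9.90% on ND, against 0% to 1.85% of the other Foxp3-negative CD4 T cells. B cells held it in 4.26%, 8.19% and 1.28% on MCDHFD and in at most 0.274% on ND. The part of NKT cells in these differences was not tested. Cell cycle genes were also higher in 13 of 18 (Mki67 at 3.76), and 23 of 38 subunits of oxidative phosphorylation were higher with none lower (median 0.309).

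Against Foxp3-positive CD4 T cells, gated on the same T cell genes with at least 1 Foxp3 UMI, the gate differed in 356 of 5980 genes (5.95%), 157 higher (2.63%) and 199 lower (3.33%). This too describes the gate, since Foxp3 itself chose the groups. All 10 tested genes listed for regulatory T cells were lower in the gate (median log2 difference -1.91). Il2ra, the interleukin-2 receptor alpha chain, averaged 32.2 ± 9.34 CPM in the gate and 234 ± 49.4 CPM in Foxp3-positive cells (-2.89 ± 0.189, SE; n = 6 each). Ikzf2 (Helios) averaged 347 ± 216 against 1390 ± 607 CPM and Ctla4 60.2 ± 26.5 against 242 ± 18.5 CPM. Both were nonetheless higher in the gate than in the other Foxp3-negative cells, by log2 2.63 and 1.66. Ikzf4, Ift80, Tnfrsf9, Cd83, Cish, Dst and Ly6c1 were lower than in Foxp3-positive cells by log2 differences of -2.47 to -1.62, in 6 of 6 libraries.

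Genes higher in the gate than in Foxp3-positive cells were led by Id2 (2.88 ± 0.210; 314 ± 143 against 37.4 ± 17.96 CPM) and Ccl5 (2.37 ± 0.441; 573 ± 325 against 150 ± 216 CPM). Nebl, Pde3b, Themis, a T cell receptor signalling protein, Mctp2 and Gpm6b were higher by 1.66 to 2.29. H2-Ab1 and H2-Eb1, class II genes of B cells and other antigen-presenting cells, were higher by 2.19 and 2.08, and Lgals3 by 1.72. These 3 genes fell below the count filter once cells with RNA of other cell types, described next, were left out. Of 11 tested Th1 genes 6 were higher and 2 lower, of 23 memory and adhesion genes 12 were higher, and Cd40lg, the helper ligand that licenses B cells, was higher by 1.51. Cell cycle genes gave no call in 19 tested (median 0.325), in edgeR, where 990 of all genes had an unadjusted p under 0.05.

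**Figure D3:**
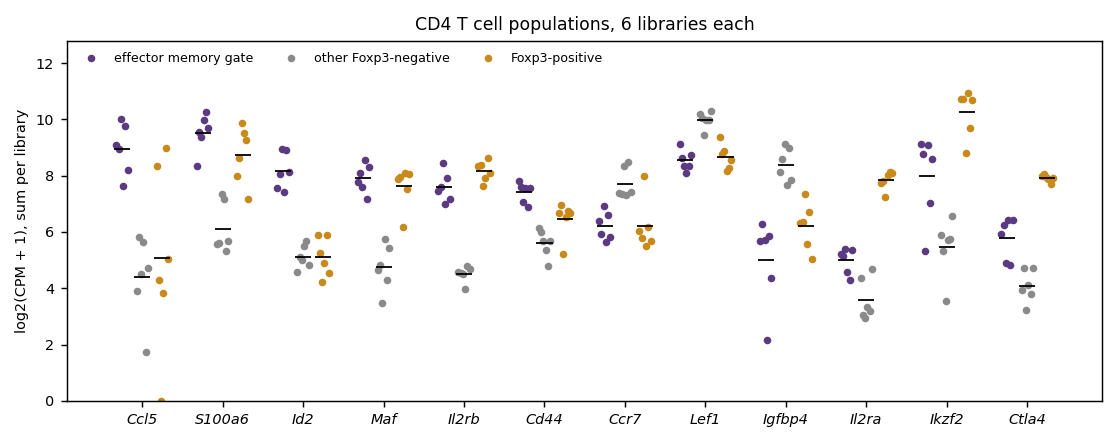
Log2(CPM + 1) of 12 genes in the gate, the other Foxp3-negative CD4 T cells and the Foxp3-positive CD4 T cells; each point is 1 of 6 libraries and the line is their mean. S100a6, Maf and Il2rb are high in the gate and the Foxp3-positive cells, Id2 is high in the gate, Ccr7, Lef1 and Igfbp4 are highest in the other Foxp3-negative cells, and Il2ra, Ikzf2 and Ctla4 are highest in the Foxp3-positive cells.

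Some gated cells carried RNA of another cell type. Under limits set after seeing the data, cells with much of it were more frequent on MCDHFD. Cells with at least 10 UMIs of monocyte and macrophage, neutrophil or plasma cell markers, or at least 20 of B cell markers, numbered 8, 17 and 8 on MCDHFD and 3, 5 and 4 on ND, or 33 of 287 (11.5%) and 12 of 303 (3.96%). Of these, 25 on MCDHFD (5, 12 and 8) and 6 on ND (1, 5 and 0) met the monocyte and macrophage limit. As shares of the gate the diets overlapped in these, with 5 of 106 cells in MCDHFD replicate 1 and 5 of 75 in ND replicate 2. A looser measure, at least 1 UMI of any of 10 marker genes of other cell types, was not more frequent on MCDHFD: it took 53, 75 and 20 gated cells on MCDHFD (50.0%, 64.1% and 31.25%) and 88, 15 and 68 on ND (69.3%, 20% and 67.3%), with both filtered lists lowest. The 33 and 12 cells past the limits of 10 or 20 UMIs are here called mixed cells. Their median UMI count was 10194, 14740 and 7235 on MCDHFD and 10127, 11981 and 11341 on ND. The remaining gated cells of the same libraries had lower medians, 6784, 7197 and 6242 on MCDHFD and 6295, 5799 and 7289 on ND. Scrublet, a doublet caller, marked 9 of the 590 gated cells, and 8 of those were among the mixed cells. The 9 were 4 of 106 in MCDHFD replicate 1 and 5 of 117 in MCDHFD replicate 2. Among all kept cells it marked 241 of 6606, 200 of 6566 and 0 of 3527 on MCDHFD and 75 of 6533, 0 of 3273 and 56 of 4952 on ND. Results on diet below are for all gated cells unless stated otherwise, and many are therefore also given without the mixed cells.

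Diet changed 98 of 7852 genes tested in the gate (1.25%), 78 higher (0.993%) and 20 lower (0.255%) on MCDHFD, in edgeR's quasi-likelihood test with Benjamini-Hochberg adjusted p under 0.05 and list form in the fit. Without the mixed cells it was 40 of 7351 (0.544%), 17 higher (0.231%) and 23 lower (0.313%), and 24 genes were called both times, 10 higher and 14 lower. Of the 78 genes higher in all gated cells, 51 no longer passed the count filter without the mixed cells and 17 were tested but not called. With diet alone in the fit, only Apoe was called (0.0127%), at an adjusted p of 0.030, and 283 genes had an unadjusted p under 0.05. No gene was called with diet alone and without the mixed cells, where 182 had an unadjusted p under 0.05.

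A few interferon-stimulated genes fell. Ifi27l2a, which is induced by type I interferon, had 580.2, 423 and 369 CPM on MCDHFD, against 1413, 1477 and 1340.2 CPM on ND. The diets were far apart, with a log2 change of -1.66 ± 0.173 (SE; adjusted p = 2.92e-05, edgeR) and of -1.62 without the mixed cells (7.14e-06). Isg15, a ubiquitin-like protein induced by the same pathway, had 25.7, 28.7 and 18.4 CPM on MCDHFD and 60.2, 69.8 and 57.8 CPM on ND, a log2 change of -1.34 ± 0.254 (adjusted p = 0.00863, edgeR) and -1.26 without the mixed cells (0.0206). Bst2 (tetherin), a membrane protein that retains virions, had 43.7, 50.8 and 57.1 CPM on MCDHFD and 85.6, 119 and 75.2 CPM on ND (log2 -0.88 ± 0.205; adjusted p = 0.0357, edgeR). Bst2 lost its call without the mixed cells (-0.90, adjusted p = 0.0563, edgeR) and without any single library (0.0639 to 0.206). Isg15 lost its call without ND replicate 1 (adjusted p = 0.0548, edgeR) and, without the mixed cells, kept it in 2 of 6 such fits, and Ifi27l2a kept its own without any single library (at most 0.00141).

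Of 32 tested genes of the type I interferon response, these 3 fell and none rose, where 0.255% of all genes were called lower. The median log2 change was -0.21, with 24 of 32 below 0, against a median of -0.004 over all genes tested. The CPM of the diets did not overlap for 8 of the 32, all lower on MCDHFD, where 8.58% of all genes did not overlap and 3.32% lay lower. With the mixed cells left out, 2 of 30 were called, 19 were below 0 and the median was -0.19. Of 25 genes of interferon gamma and antigen presentation none was called, 21 were below 0 and the median was -0.23, but -0.0018 without the mixed cells. Both Ifi27l2a and Isg15 also fell in other CD4 T cells. In the other Foxp3-negative cells diet changed 1.13% of genes (0.405% higher, 0.729% lower), and in Foxp3-positive cells 1.23% (0.39% higher, 0.841% lower). Ifi27l2a changed by -1.42 in the other Foxp3-negative CD4 T cells (adjusted p = 0.000333, edgeR) and by -1.44 in Foxp3-positive cells (0.000438), and Isg15 by -1.20 (0.00424) and -2.26 (0.000403).

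Both Isg15 and Bst2 carry, just upstream of their starts, repeats of letters that interferon-activated factors are known to bind, and their promoters are shown for that reason. The stretches come from RefSeq promoters on GRCm38.p6, are written 5′ to 3′ on the gene's strand, and have in capitals the letters that match GAAA, then 2 bases of any kind, then GAAA. Both strands were searched and overlapping matches were allowed. Isg15, at chr4:156200860-156200911 on the minus strand, holds 3 matches from 78 to 57 bases upstream of the start, and Bst2, at chr8:71537572-71537617 on the minus strand, holds 2 matches from 130 to 115 bases upstream.
Isg15: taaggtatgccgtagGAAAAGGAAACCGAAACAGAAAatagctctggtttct
Bst2: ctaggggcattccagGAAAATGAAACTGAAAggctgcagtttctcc
Counted by promoter, the same letters occur within 250 bases upstream in 978 of 32851 (2.98%). Sets of genes were counted by gene, where a match in any promoter of the gene sufficed, so their shares are not on the same measure. By gene, the letters occur in 13 of the 26 tested type I interferon genes that had a promoter in the table (50%). Of 17 genes lower on MCDHFD with a promoter, 2 held them (11.8%), namely the 2 shown (the promoter of Ifi27l2a was not analysed here), and of 58 higher genes 4 did (6.9%). A match of letters is a description and shows no binding.

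The receptor gene Il12rb2 and the survival gene Bcl2 rose. Il12rb2, the signalling chain of the interleukin-12 receptor that Th1 cells carry, had 37.3, 40.2 and 32.7 CPM on MCDHFD, against 8.10, 9.19 and 8.09 CPM on ND. Libraries of each diet lay close together and far from the other diet, at a log2 change of 2.09 ± 0.341 (adjusted p = 0.00255, edgeR) and 2.55 without the mixed cells (0.000254). Low on ND, Il12rb2 could pass the count filter through MCDHFD alone, so its call is given as a description. In the other Foxp3-negative CD4 T cells Il12rb2 had 1.06 to 2.403 CPM on MCDHFD and 2.33 to 4.11 CPM on ND, too low to be tested. Bcl2, which protects lymphocytes from death, had 596, 601 and 300.0 CPM on MCDHFD and 237, 118 and 216 CPM on ND, so the lowest MCDHFD library, one of the pair with filtered lists, still lay above all ND libraries. Its log2 change was 1.35 ± 0.165 (adjusted p = 0.000179, edgeR) and 1.55 without the mixed cells (7.14e-06). Both genes were called without each of the 6 libraries in turn. The mixed cells held 7.60% of the Bcl2 UMIs of the gate on MCDHFD and 5.04% on ND.

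Il7r, the receptor of the survival cytokine interleukin-7, had 818, 745 and 661 CPM on MCDHFD and 488, 459 and 454 CPM on ND. The diets did not overlap, but the gene missed the threshold in all gated cells (log2 0.63 ± 0.155; adjusted p = 0.0509, edgeR) and passed it without the mixed cells (0.80, adjusted p = 0.0153, edgeR). Even there it kept its call in only 2 of the 6 fits that leave out a library (adjusted p up to 0.269, edgeR), namely those without MCDHFD replicate 3 or ND replicate 2. Ifngr1, a chain of the interferon gamma receptor, had 187, 138 and 202 CPM on MCDHFD and 85.6, 103 and 109 CPM on ND (log2 0.77, adjusted p = 0.0509, edgeR; 0.58 without the mixed cells). Of 20 tested cytokine receptors only Il12rb2, which could pass the count filter through MCDHFD alone, was called. Of the 20, 16 were above 0 and the median was 0.27. The diets did not overlap for 4, all higher on MCDHFD, against 5.26% of all genes. Of the 19 naive and stem-like genes Bcl2 alone was called (median 0.28, 15 above 0). In the gate less its mixed cells, Bcl2, Il7r and Igfbp4 were called and 16 of 19 were above 0 (median 0.43). Igfbp4 kept its call in the same 2 of 6 fits, with log2 changes of 1.15 to 2.52. The naive genes Ccr7, Lef1 and Tcf7 were not called (log2 changes of -0.05 to 0.36 in all gated cells).

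Klrb1c, the NK cell receptor NK1.1, had 52.7, 59.4 and 87.8 CPM on MCDHFD and 27.8, 36.7 and 16.2 CPM on ND, a log2 change of 1.28 ± 0.259 (adjusted p = 0.0136, edgeR) and 1.59 without the mixed cells (0.0046). Without ND replicate 3 its adjusted p was 0.116, and without the mixed cells 4 of 6 such fits called it. It was the 1 of 10 tested NKT cell markers that was called; the median of the 10 was -0.11, and Zbtb16 had 54.0, 32.6 and 24.5 CPM on MCDHFD and 31.2, 44.1 and 47.4 CPM on ND. The summed NKT list was 771, 719 and 1147 CPM on MCDHFD and 772, 886 and 785 CPM on ND, which overlapped. Of 16 tested Th1 genes Il12rb2, with the limit on its call given above, and Ly6c2 rose. Ly6c2 lost its call without the mixed cells (1.56 in all gated cells, 1.35 without, adjusted p = 0.0649, edgeR). Tbx21 had 56.6, 46.9 and 42.9 CPM on MCDHFD and 22.0, 57.0 and 26.6 CPM on ND, which overlapped. The cytokine Ifng had 7.72, 3.83 and 2.04 CPM on MCDHFD and 13.9, 12.9 and 15.03 CPM on ND (log2 -1.60, adjusted p = 0.251, edgeR). Ifng, low on MCDHFD, could pass the count filter through ND alone. The Th17 and type 3 genes were all below 0 in 7 tested (median -0.76) with none called, among them the receptor gene Il23r at 0, 11.5 and 14.3 CPM on MCDHFD and 27.8, 11.02 and 35.8 CPM on ND. None of 12 follicular helper genes (median -0.22), 3 Th2 genes (-0.32), 10 genes of the regulatory T cell list (-0.36), 9 inhibitory receptor genes (0.07) or 14 chemokine receptor and homing genes (0.20) was called.

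**Figure D4:**
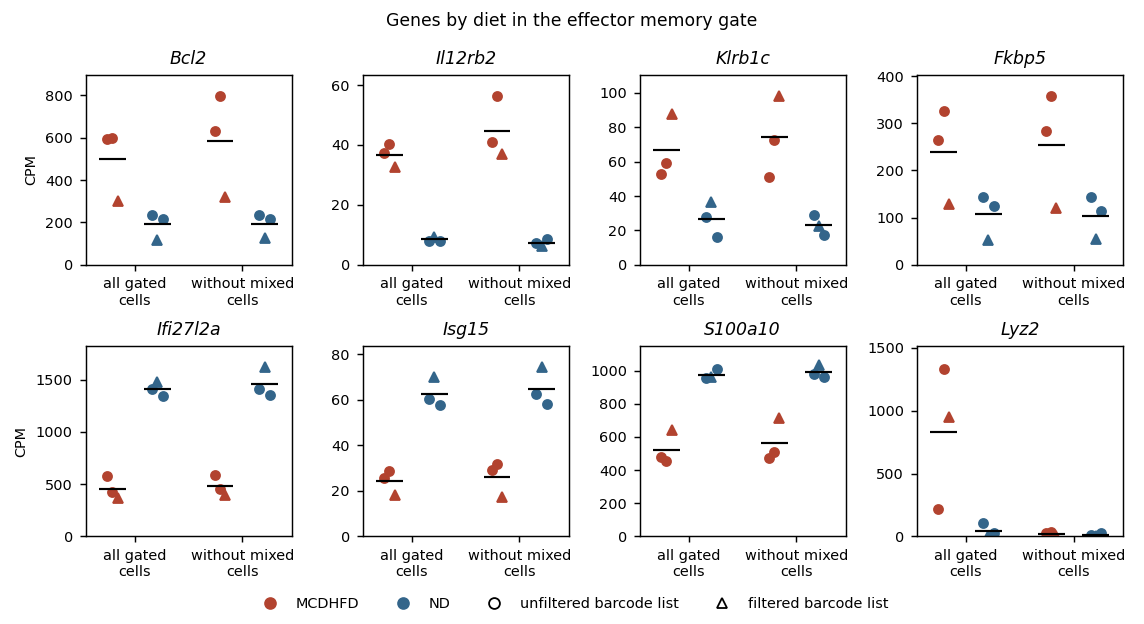
CPM of 8 genes in all gated cells and without the mixed cells, by library, MCDHFD left of ND; each point is 1 library, triangles mark filtered barcode lists and the line is the mean of 3. Il12rb2 and Bcl2 lie higher and Ifi27l2a, Isg15 and S100a10 lower on MCDHFD in both panels of a gene, and Lyz2 reaches 1332 CPM in all gated cells and stays near 0 without the mixed cells.

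Among genes of lipid use and stress hormones, Cpt1a, which admits long-chain fatty acids into mitochondria, had 73.3, 44.1 and 63.3 CPM on MCDHFD and 31.2, 16.5 and 20.8 CPM on ND. Its log2 change was 1.29 ± 0.299 (adjusted p = 0.0352, edgeR) and 1.38 without the mixed cells (0.0211), and it kept its call in 2 of the 6 fits that leave out a library. Plin2, a lipid droplet coat protein, rose by 1.76 (21.9, 24.9 and 34.7 CPM on MCDHFD; 8.10, 5.51 and 8.09 CPM on ND; adjusted p = 0.0352, edgeR) but lost its call without any single library (adjusted p = 0.0833 to 0.199, edgeR) and fell below the count filter without the mixed cells. Plin2, low on ND, could also pass the count filter through MCDHFD alone. Cpt1a and Plin2, with the limits on its call just given, were the 2 called of 17 tested genes of fatty acid oxidation (median 0.12). Of all genes tested, 0.993% were called higher. Whether the list as a whole changed was not tested. Fkbp5, a chaperone induced by glucocorticoids, had 265, 326 and 129 CPM on MCDHFD and 143, 53.3 and 124 CPM on ND. The diets overlapped across the list forms but not within either, with a log2 change of 1.13 ± 0.183 (adjusted p = 0.00255, edgeR), 1.25 without the mixed cells (0.000463) and a call without each library in turn. It was the 1 called of 13 glucocorticoid-responsive genes, of which 10 were above 0 (median 0.46), including Tsc22d3 at 102, 122 and 178 CPM on MCDHFD and 77.5, 88.2 and 65.9 CPM on ND (0.72, adjusted p = 0.0862, edgeR). Of 21 genes of one-carbon, methionine and choline metabolism none was called (median 0.35).

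S100a10 and the immediate-early gene Egr1 fell. S100a10, the partner of annexin A2, had 477, 453 and 641 CPM on MCDHFD, against 954, 959 and 1009 CPM on ND. The log2 change was -0.95 ± 0.167 (adjusted p = 0.00469, edgeR) and -0.86 without the mixed cells (0.0147); without ND replicate 3 the adjusted p was 0.0588, and without the mixed cells 2 of 6 such fits called it. S100a6 had 327, 758 and 659 CPM on MCDHFD and 1013, 1224 and 820 CPM on ND, which passed only without the mixed cells (-1.23, adjusted p = 0.00083, against -0.83 and 0.0856 in all gated cells, edgeR). Of 24 tested memory and adhesion genes, Lgals3 and Anxa1 rose and S100a10 fell in all gated cells (Lgals3 not without ND replicate 1, adjusted p = 0.0566, edgeR). Of all genes, 0.993% were called higher and 0.255% lower. S100a6 and S100a10 fell of 23 tested without the mixed cells, where 20 were below 0 (median -0.22). Neither Lgals3 nor Anxa1 was called there, and Lgals3 changed by -1.56 to -0.0468 in the 6 such fits that leave out a library. Egr1, an early target of antigen receptor signals, had 16.7, 16.3 and 4.08 CPM on MCDHFD and 53.2, 82.7 and 34.7 CPM on ND (-2.00 ± 0.371, adjusted p = 0.0075, edgeR; -2.07 without the mixed cells; adjusted p = 0.0768 without ND replicate 1). Low on MCDHFD, Egr1 could pass the count filter through ND alone, so its call is given as a description. Egr1 was the only call among 17 early activation genes (median 0.04), and none was made among 20 genes of T cell receptor signalling (-0.14).

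Hdac9, a class II histone deacetylase, had 36.02, 23.9 and 10.2 CPM on MCDHFD and 59.0, 136 and 71.7 CPM on ND. It fell by 1.76 ± 0.323 on the log2 scale (adjusted p = 0.00729, edgeR; 1.69 without the mixed cells) and was called without each library in turn. Nebl, a nebulin-family actin-binding protein, had 77.2, 39.3 and 65.3 CPM on MCDHFD and 123, 93.7 and 185 CPM on ND (-1.22 ± 0.262, adjusted p = 0.0218, edgeR). Atp5k, a subunit of ATP synthase, had 131, 168 and 137 CPM on MCDHFD and 248, 241 and 230 CPM on ND (-0.75 ± 0.173, adjusted p = 0.0352, edgeR). Atp5k was the 1 call of 38 oxidative phosphorylation genes, of which 35 were below 0 (median -0.28); 9 had diets that did not overlap, all lower on MCDHFD, where 3.32% of all genes lay lower without overlap. The summed list overlapped, at 7429, 9353 and 12315 CPM on MCDHFD and 10392, 13669 and 10612 CPM on ND. Acsbg1, Igflr1, Tesc, Cd96 and Rgs10 also fell, by log2 changes of -1.47 to -0.83, Cd96 and Rgs10 losing their calls without the mixed cells (adjusted p = 0.058 and 0.0545, edgeR). Nebl, Atp5k, Acsbg1, Igflr1, Tesc, Cd96 and Rgs10 each kept their call in at most 3 of the 6 fits that leave out a library.

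Myeloid genes rose in the sums. Apoe, an apolipoprotein made by macrophages, had 118, 166 and 271 CPM on MCDHFD and 8.10, 7.35 and 1.16 CPM on ND (4.97 ± 0.339, adjusted p = 5.64e-08, edgeR). Both Apoe and Lyz2 are on the monocyte and macrophage list that chose the mixed cells, so their share in those cells, and their loss without them, are largely set by that choice and are given as a description. The mixed cells, 33 of 287, held 93.5% of the Apoe UMIs on MCDHFD. Lyz2, the lysozyme of macrophages and neutrophils, had 219, 1332 and 949 CPM on MCDHFD and 105, 5.51 and 24.3 CPM on ND (4.13 ± 0.590, adjusted p = 0.00077, edgeR), and the mixed cells held 97.7% of its UMIs on MCDHFD and 72.2% on ND. Without those cells Lyz2 changed by 0.68 (adjusted p = 0.598, edgeR), and Apoe, with 13.2, 22.0 and 2.46 CPM on MCDHFD and 7.198, 4.13 and 1.23 CPM on ND, was too low to be tested. Outside the lists that chose the mixed cells, Lyn, Plac8, Zeb2, Cybb, Tpd52, Ifitm3, Msrb1, Zfp710, Cst3 and Ms4a6c rose by log2 changes of 1.24 to 2.61 in all gated cells. For the 8 of them counted (Msrb1 and Zfp710 were not), the mixed cells held 64.2% to 95.1% of the MCDHFD UMIs and 9.47% to 62.8% of the ND UMIs. A cell chosen for RNA of another cell type can carry other genes of that type, so these shares, and the loss of the genes without the mixed cells, are a description too. Once those cells were left out, Lyn and Zeb2 were too low to be tested and the other 8 were not called.

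The monocyte and macrophage list summed to 800.1, 2415 and 1929 CPM on MCDHFD and 299, 566 and 126 CPM on ND. Of its 16 members, 2, 0 and 1 were at 0 on MCDHFD and 7, 5 and 8 on ND. The 8 members that passed the count filter could pass through MCDHFD alone, so their calls are not counted here. B cell markers summed to 1539.8, 1929 and 1535 CPM on MCDHFD and 852, 2379 and 728 CPM on ND, with none of 12 called. Neutrophil markers summed to 75.9, 611 and 1743 CPM against 382, 268 and 134 CPM, plasma cell markers to 56.6, 1216 and 57.1 against 109.9, 55.1 and 62.4 CPM, and NK cell markers to 256, 508 and 388 against 83.3, 654 and 45.1 CPM, MCDHFD given first. None of 3 neutrophil and 2 plasma cell genes was called, and 1 of 4 NK genes was higher (Klrb1c). Dendritic cell markers gave 468, 307 and 267 CPM against 238, 285 and 156 CPM, with Cst3 higher and Bst2 lower of 2 tested, and innate lymphoid markers 1277, 1278 and 1541 CPM against 1038, 1321 and 1177 CPM, with none of 7 called. Pancreatic acinar markers stood at 735 CPM in MCDHFD replicate 3 and 4.79 to 8.10 CPM in the other 5 libraries. Gamma delta T cell, stromal and erythroid markers summed to at most 109, 208 and 57.8 CPM in any library and platelet markers to at most 2.04 CPM, with no call among the 2 genes tested.

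**Figure D5:**
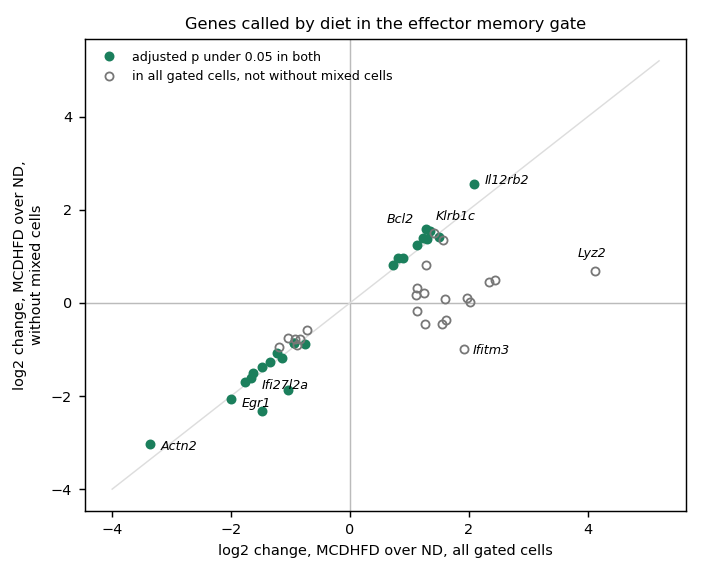
Log2 change on MCDHFD over ND in all gated cells (horizontal) against that without the mixed cells (vertical), for the 47 called genes tested both ways; filled points are the 24 called both times. Il12rb2, Bcl2 and Ifi27l2a lie near the diagonal, and Lyz2 and Ifitm3 lie far from it.

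Remaining lists gave few calls. Of 23 cell cycle genes Ube2c fell (median -0.26), and without the mixed cells 3 fell (Ube2c, Top2a and Hmgb2) with 20 of 23 below 0 (median -0.39). Of all genes, 0.255% were called lower in all gated cells and 0.313% without the mixed cells. Without the mixed cells, Top2a had 7.33, 20.6 and 95.9 CPM on MCDHFD and 94.8, 109.5 and 128 CPM on ND, and Hmgb2 284, 199 and 824 CPM on MCDHFD and 655, 915 and 920.1 CPM on ND. MCDHFD replicate 3 thus lay within the ND range for both, and each kept its call in 2 of the 6 fits that leave out a library, against 5 of 6 for Ube2c. Ube2c had 5.86, 1.37 and 34.4 CPM on MCDHFD and 20.4, 126 and 38.2 CPM on ND there. Its MCDHFD replicate 3 also lay within the ND range. Low in MCDHFD replicates 1 and 2, Ube2c could pass the count filter through ND alone, so its call is given as a description. In all gated cells Ube2c kept its call in 2 of 6, and the summed list was 1178, 2087 and 4627 CPM on MCDHFD and 2066, 3573 and 2847 CPM on ND, highest in MCDHFD replicate 3. Mki67 was detected in 7.50% ± 3.16 of gated cells on MCDHFD and 12.2% ± 5.90 on ND (SD, n = 3 each), which overlapped. Zeb2 was the 1 called of 8 cytotoxicity genes, and Bcl2 the 1 called of 12 genes of the BCL2 family. None was called of 16 genes of cytokine signalling suppression (median 0.06), 14 of NF-kB (-0.04), 14 of glycolysis (0.04), 15 of sterol and fatty acid synthesis (-0.20), 8 of the ATF4 response (0.11) or 9 of heat shock (-0.18). Of 18 tested genes listed because diet had changed them in CD8 and CD4 T cells of these libraries, 4 rose and 1 fell; that list was chosen on these samples and is not independent evidence.

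Whether diet acted differently in the gate was tested as the population by diet interaction in edgeR. Against the other Foxp3-negative CD4 T cells, 26 of 8755 genes (0.297%) differed, 24 with a higher change in the gate (0.274%) and 2 with a lower one (0.0228%). Besides Apoe, Lyz2 and Plac8, these included Coro2a, an actin-binding coronin, which had 156, 196 and 182 CPM in the gate on MCDHFD and 61.3, 110 and 114 CPM on ND, against 128, 205 and 142 CPM and 23.8, 18.6 and 40.0 CPM in the other cells. Coro2a thus rose in both populations and less in the gate, by 0.89 against 2.46 on the log2 scale (difference -1.58 ± 0.229, adjusted p = 0.0034, edgeR). Without the mixed cells 49 genes differed, 4 of them shared with the 26. The rise of Bcl2 was not shown to differ (0.50 larger in the gate, adjusted p = 0.389, edgeR). DESeq2 called no gene, with 108 genes at an unadjusted p under 0.05.

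Against Foxp3-positive cells, 15 of 7102 genes (0.211%) differed, 10 with a higher change in the gate (0.141%) and 5 with a lower one (0.0704%). Hdac9, lower in the gate on MCDHFD, had 353, 611 and 83.5 CPM in Foxp3-positive cells on MCDHFD and 26.6, 47.3 and 165 CPM on ND. In those cells it lay higher on MCDHFD within each list form, though MCDHFD replicate 3 was below ND replicate 3. The difference of the changes was -3.85 ± 0.493 (adjusted p = 0.000796, edgeR) and -3.57 without the mixed cells.

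Trnp1, the gene in the study's title, was rare in the gate. It was detected in 2 of 106, 7 of 117 and 8 of 64 gated cells on MCDHFD (1.89%, 5.98% and 12.5%) and in 0 of 303 on ND. Over the 3 ND libraries pooled, a count of 0 allows a share of cells with a UMI of up to 0.99%; this covers counting error only, neither the spread between libraries nor RNA lost in capture. At 5.15, 8.62 and 44.9 CPM on MCDHFD it was below the count filter and was not tested. The other Foxp3-negative CD4 T cells held it in 13.7%, 19.1% and 56.8% of cells on MCDHFD and 0%, 0.617% and 0% on ND, and B cells in 0% to 0.527%. In each MCDHFD library the share was thus lower in the gate than in the other Foxp3-negative CD4 T cells, at median depths of 6306 to 7440 UMIs in the gate and 5311 to 7690 in the other cells.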

How the data were processed

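Droplet single-cell RNA sequencing (10x Genomics 3′ chemistry on an Illumina NovaSeq, per the labels' protocols) of spleens gave 3 libraries on MCDHFD and 3 on ND. The deposited values are raw UMI counts per gene and barcode, with no normalization. Per the submitters' processing notes, Cell Ranger 9.1.0 and Seurat 4.3.0 were used with mm10. Per the file headers, 4 libraries with unfiltered barcode lists came from Cell Ranger 9.0.1, and MCDHFD replicate 3 and ND replicate 2, with filtered lists, from 7.2.0.

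A barcode was kept as a cell from 1000 UMIs and 400 detected genes upward, if mitochondrial genes took no more than 10% of its UMIs. The gate was applied to raw UMIs, its counts were summed per library, and the 15 gate genes stayed in library sizes but out of tests. Tests used edgeR 4.0.16 (filterByExpr, TMM, quasi-likelihood, Benjamini-Hochberg over all genes tested), with diet and list form as terms; SE is the log2 change over the square root of F. The gate was compared with the other Foxp3-negative and with the Foxp3-positive cells with library as a block, and diet by population with its interaction. Shares were compared by two-sided exact permutation tests, with Wilson intervals. Scrublet was run per library, and predicted doublets were left out only as an alternative. DESeq2 1.42.0, R 4.3.3, Python 3.11.15 and scanpy 1.11.5 were also used.

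Named diet genes were up to 15 in each direction with the largest change among those past the threshold of 0.05, with a mean log2 CPM no lower than 5, no overlap of diets and the same sign in each list form. Named population genes were 10 in each direction by the first 2 limits and 1 direction in 6 of 6 libraries, and named interactions the 5 with the smallest adjusted p. Immunoglobulin, T cell receptor segment, haemoglobin, mitochondrial, unnamed and gate genes were not named. Members of the 41 gene lists could be named beside their list's count. The members and lists were chosen with earlier results of these data known. On counts simulated for the diet comparison, 51.5% of genes changed by a log2 of 1 were recovered (7410 genes) and 90.5% of those changed by 2 (7384 genes). The alternatives were other tests, scalings and filters, stricter gates, thinning, leaving out doublets, cells or libraries, and, chosen after seeing the data, leaving out the mixed cells and fits with diet alone without each library.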

Additional observations from a re-analysis of the deposited data

Results flagged for a closer look

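The change with diet differed between the gate and the other Foxp3-negative CD4 T cells, by the interaction test in edgeR, for Apoe by 4.92 ± 0.583 on the log2 scale (SE; adjusted p = 0.000511), for Lyz2 by 5.57 ± 0.685 (0.000578) and for Plac8 by 3.83 ± 0.555 (0.0034). The mixed cells, chosen in part by Apoe and Lyz2, held 93.5% of the Apoe UMIs of the gate on MCDHFD and 25% on ND. The difference for Apoe is therefore given as a description. Without the mixed cells the difference was -0.135 for Lyz2 and -0.671 for Plac8, and Lyz2 stood at 454 CPM in the other cells of ND replicate 1 alone, against under 10 CPM in ND replicates 2 and 3. For Coro2a the difference was -1.58 and for Nebl -1.89 ± 0.305 (adjusted p = 0.00684, edgeR). Nebl had 77.2, 39.3 and 65.3 CPM in the gate on MCDHFD and 123, 93.7 and 185 CPM on ND, against 24.4, 15.6 and 16.7 CPM and 10.7, 9.30 and 15.2 CPM in the other cells, so it was lower on MCDHFD in the gate and higher on MCDHFD in the other cells. The differences without those cells were -1.53 for Coro2a and -1.73 for Nebl.

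Between the gate and the Foxp3-positive cells, the interaction test in edgeR gave -3.85 for Hdac9, -2.34 ± 0.420 for Dapl1 (adjusted p = 0.024), 3.4 ± 0.628 for Irf8 (0.0299), 3.14 ± 0.604 for Dscam (0.0351) and -2.21 ± 0.431 for Pde3b (0.0351). Dapl1, a gene of naive T cells, had 126, 119 and 87.8 CPM in the gate on MCDHFD and 78.7, 71.7 and 67.1 CPM on ND, against 91.4, 65.8 and 155 CPM and 13.3, 20.7 and 6.33 CPM in Foxp3-positive cells. It was higher on MCDHFD in both populations, by more in Foxp3-positive cells. Without the mixed cells the difference was -2.27 for Dapl1, 2.93 for Irf8 (adjusted p = 0.515, edgeR), -1.48 for Dscam and -2.40 for Pde3b (0.0675). The Foxp3-positive sums rest on 31 to 56 cells a library.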

How the results depend on the processing

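The share of Foxp3-negative CD4 T cells in the gate stayed lower on MCDHFD under every alternative tried, by -16.8 to -12.0 points without 1 library. The diet count of 98 genes moved to 1 with diet alone, 31 with DESeq2, 26 with DESeq2 and diet alone, 328 with no filter, 31 with at least 3 markers, 39 without predicted doublets, 16 without cells with RNA of other cell types, 4 in thinned cells and 40 without mixed cells (0 with diet alone, 12 with DESeq2). It was 51 to 154 without 1 library (154 without MCDHFD replicate 3, 152 without ND replicate 2, 52 without ND replicate 1, 51 without ND replicate 3), 0 to 5 with diet alone and 8 to 263 without mixed cells. A replicate block gave 4 genes without list form and 171 with it. Same-numbered libraries correlated at 0.399, -0.411 and -0.388. Pairs of an MCDHFD and an ND library correlated at 0.238 to 0.619 within a list form and at -0.521 to -0.388 across the forms. These values followed list form, so they cannot show whether the numbers pair the samples. Of the 47 diet genes counted by name, 46 lost their call with diet alone and none changed direction.

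Against the other Foxp3-negative cells DESeq2 called 1116 genes, and 1450 to 1876 were called without 1 library. Against Foxp3-positive cells 649 were called with no filter, 200 with DESeq2 and 236 to 385 without 1 library. The interaction with the other cells gave 126 with no filter, 49 without mixed cells, 0 with DESeq2, 16 without the population by list form term and 9 to 52 without 1 library. That with Foxp3-positive cells gave 81, 5, 1, 9 and 4 to 64 in the same order, and 27 without predicted doublets.

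Directions turned for these log2 changes. Without mixed cells, with list form and with diet alone, Cst3 was -0.45 and -0.422, Ifitm3 -0.988 and -0.962, Lgals3 -0.445 and -0.0956, Msrb1 -0.377 and -0.398 and S100a9 -1.56 and -1.53. Leaving out 1 library as well gave Cst3 -0.61 to -0.335, Cybb -0.572 to -0.00583, Ifitm3 -1.55 to -0.635, Lgals3 -1.56 to -0.0468, Msrb1 -0.569 to -0.242, Tpd52 -0.112 to -0.094 and S100a9 -2.07 to -0.532. In all gated cells the fits without 1 library reached 1.46 for Cst3, 3.02 for Cybb, 3.13 for Ifitm3, 1.81 for Lgals3, 1.95 for Msrb1, 2.38 for Tpd52 and 1.66 for S100a9. Lgals3 was -0.87 and S100a9 -1.53 without cells with RNA of other types. S100a9 was also -0.284 in the unfiltered lists, -0.0652 without doublets, -0.262 without cells with Il2ra, Ikzf2 or Ctla4 UMIs, -0.286 to -0.285 without 1 library and -0.317 with diet alone. Rgs10 was 0.0726 in thinned cells. Without mixed cells the interactions were -0.135 for Lyz2, -0.671 for Plac8 and -1.48 for Dscam. The causes of these turns were not tested.

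A gate of 64 to 127 cells a library limits low genes, and 3 against 3 libraries cannot give an exact p under 0.1.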
